A study of Homo sapiens with 21 samples.

Results

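The cadherin and catenin adhesion genes were followed in HEY cells, a human ovarian cancer line, after transfection with mir-429. The set named 10 genes: the cadherins CDH1, CDH2, CDH3, CDH4, CDH6 and CDH11, the adhesion molecule EPCAM, and the catenins CTNNA1, CTNNB1 and CTNND1. Every probe set that GEO's annotation of the HG-U133 Plus 2.0 array gives to one of these symbols was taken, which yielded 28 of the array's 54675 probe sets and covered 9 of the 10 genes, among 21357 gene symbols on the array. That annotation names no probe set for CDH4, which was therefore not analysed here. The 21 arrays fall into 7 groups of 3. One group was sampled at 0 h without transfection, and the others at 24, 48 and 144 h after transfection with either a synthetic negative control miRNA or mir-429. All cells are of the 1 line, and no untransfected or mock-treated cells beyond 0 h are among the samples, so transfection and time in culture cannot be told apart in any comparison with untransfected cells. Replicates are labelled as biological without saying how the cultures were separated, so each p-value reflects only how far these samples vary, which may be technical.

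Classical cadherins are transmembrane proteins that bind the same cadherin on a neighbouring cell. Their cytoplasmic tails hold p120-catenin, the product of CTNND1, which slows the removal of the cadherin from the membrane, and beta-catenin, the product of CTNNB1, which binds alpha-catenin, the product of CTNNA1, and through it the actin cytoskeleton. Beta-catenin that is not at the junction is degraded or acts in the nucleus in Wnt signalling. Epithelial cells typically make E-cadherin (CDH1) and EPCAM, and mesenchymal cells N-cadherin (CDH2); ZEB1 and ZEB2, both described targets of the miR-200 family, repress CDH1.

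miR-429 is a member of that family, and its seed, the bases that pair with target transcripts, is shown because it decides which relatives could act on the same sites. The mature sequences are those of RefSeq (GRCh38.p14), written 5′ to 3′ with the seed (bases 2 to 8) in capitals; the sequence of the transfected reagent is not given in the sources used here. Counting itself, 3 of the family share the seed of miR-429.
hsa-miR-429, at chr1:1169055-1169076 on the plus strand: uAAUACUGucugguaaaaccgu
hsa-miR-200b-3p, at chr1:1167160-1167181 on the plus strand: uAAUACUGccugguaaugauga
hsa-miR-200c-3p, at chr12:6963742-6963764 on the plus strand: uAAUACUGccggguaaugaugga
The other pair of the family, hsa-miR-200a-3p and hsa-miR-141-3p, share a different seed.
hsa-miR-200a-3p, at chr1:1167916-1167937 on the plus strand: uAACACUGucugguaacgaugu
hsa-miR-141-3p, at chr12:6964155-6964176 on the plus strand: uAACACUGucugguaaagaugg

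Values are log2 expression per probe set, and each is read against the median of all probe sets of its own array, which lay between 3.95 and 4.29. A probe set was tested where it exceeded that median on at least 3 of the 21 arrays. By this rule 13 of the 28 member probe sets were tested: both of CDH2, the 1 of CDH3, 4 of 5 for CTNNA1, 2 of 3 for CTNNB1 and all 4 of CTNND1. The other 15 stayed below the array median on all 21 arrays, as did 39.3% of all probe sets. They were both probe sets of CDH1, all 6 of CDH6, all 4 of CDH11, the 1 of EPCAM, 215883_at of CTNNA1 and 1554411_at of CTNNB1. All 4 CTNND1 probe sets are also assigned to TMX2-CTNND1, a readthrough transcript, so CTNND1 values are those of both together. Changes below are log2 differences ± SE from limma with n = 3 arrays per group, and adjusted p is Benjamini-Hochberg over 30519 tested probe sets with a threshold of 0.05. The arrays measure bulk RNA, in which fewer cells with a transcript and less of it per cell cannot be told apart.

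**Figure D1:**
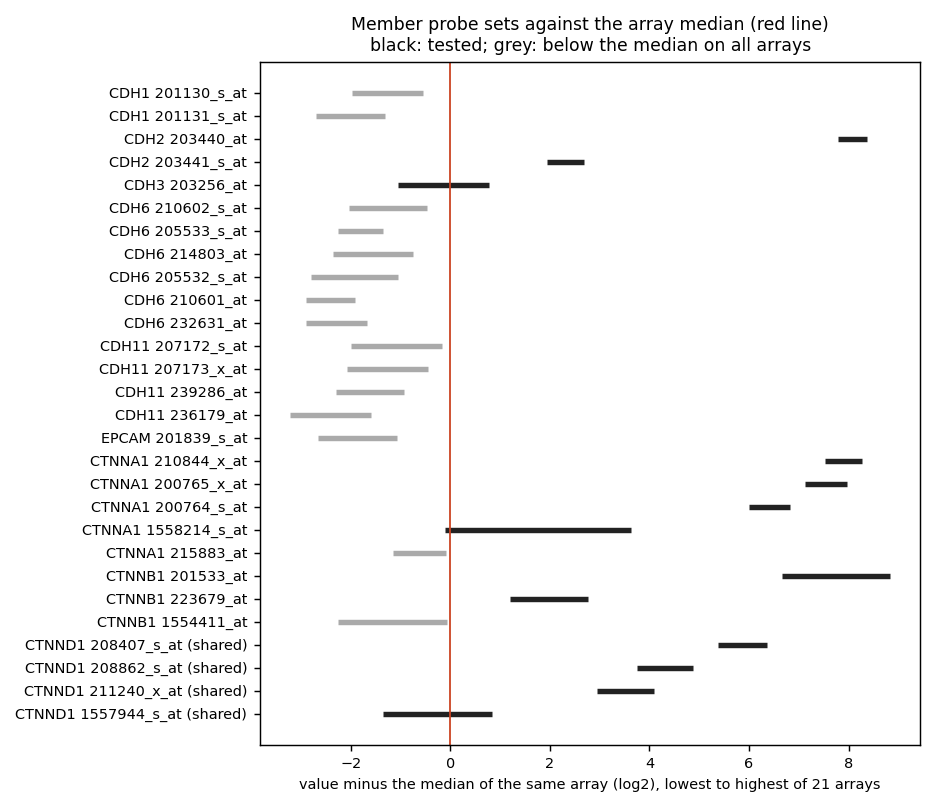
Range of each of the 28 member probe sets over 21 arrays, as the log2 value minus the median of the same array (horizontal axis); bars run from the lowest to the highest array, black for the 13 tested probe sets and grey for the 15 below the median on all arrays. All bars of CDH1, CDH6, CDH11 and EPCAM lie left of the red line at the array median, whereas CDH2, CTNNB1 and CTNND1 each have at least 2 bars wholly to its right.

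The epithelial members CDH1 and EPCAM stayed below the array median in every group. The brighter CDH1 probe set, 201130_s_at, read 2.90, 2.29 and 3.17 in the untransfected replicates. In control cells it read 2.99, 3.68 and 2.73 at 24 h, 2.62, 3.36 and 3.26 at 48 h, and 3.68, 2.68 and 2.35 at 144 h. In mir-429 cells it read 3.27, 3.35 and 3.29 at 24 h, 3.08, 2.41 and 2.93 at 48 h, and 2.20, 3.19 and 2.72 at 144 h. The control and mir-429 groups overlapped at each time, and the array that came closest to its median was still 0.54 below (highest difference -0.54). The second CDH1 probe set, 201131_s_at, ranged from 1.59 to 2.86.

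EPCAM, a homophilic adhesion protein that is cleaved to release a signalling fragment, read between 1.55 and 3.07 with its 1 probe set, 201839_s_at. It read 2.27, 2.17 and 1.90 in untransfected cells. Control cells read 1.94, 2.57 and 1.97 at 24 h, 2.54, 2.31 and 1.55 at 48 h, and 2.48, 2.19 and 2.12 at 144 h. Mir-429 cells read 2.20, 2.12 and 2.67 at 24 h, 3.07, 2.86 and 2.22 at 48 h, and 2.07, 2.45 and 2.24 at 144 h. The 2 highest readings, 3.07 and 2.86, were of mir-429 at 48 h, but the third array of that group, at 2.22, lay within the range of the others. The control and mir-429 groups overlapped at each time. When all probe sets were tested without the brightness rule, limma called no CDH1 or EPCAM probe set between mir-429 and control at any single time.

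CDH6 and CDH11, type II cadherins known from kidney and from mesenchymal cells and bone respectively, were likewise below the array median throughout. The brightest CDH6 probe set, 210602_s_at, read 2.90, 2.84 and 2.71 in untransfected cells. In control cells it read 3.33, 3.19 and 2.94 at 24 h, 2.88, 3.70 and 2.35 at 48 h, and 2.64, 3.23 and 3.20 at 144 h. In mir-429 cells it read 3.22, 3.34 and 3.08 at 24 h, 2.67, 2.11 and 2.65 at 48 h, and 2.43, 2.90 and 2.94 at 144 h. Control and mir-429 arrays overlapped at all 3 times.

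CDH11 207172_s_at read 2.38, 2.37 and 2.29 in untransfected cells, its lowest group. Control cells read 2.73, 2.95 and 2.68 at 24 h, 3.61, 4.01 and 2.83 at 48 h, and 2.73, 2.83 and 2.94 at 144 h. Mir-429 cells read 2.71, 2.87 and 2.45 at 24 h, 2.73, 2.95 and 3.44 at 48 h, and 2.75, 2.92 and 2.74 at 144 h. Here too control and mir-429 arrays overlapped at each time. The 6 CDH6 probe sets reached at most 3.70 (210602_s_at, control at 48 h) and the 4 CDH11 probe sets at most 4.01 (207172_s_at, the same control replicate 2). That array, 0.16 below its own median for 207172_s_at (difference -0.16), also gave the highest reading against its array median of 6 of these 10 probe sets. Testing all probe sets without the brightness rule called 1 of the 15 dim ones between mir-429 and control at a single time: 214803_at of CDH6 at 48 h, at -0.87 (limma adjusted p = 0.0142). It read 2.88, 3.42 and 2.39 in control and 1.78, 1.91 and 2.39 in mir-429 cells, all below the array median. Of all 54613 probe sets in this fit, 4233 were called at 48 h, 1894 of them higher with mir-429. The same fit called 5 of the 15 higher in control cells at 48 h than in untransfected cells. Beside them, 18896 of all 54613 probe sets were called in this comparison, 9325 of them higher. The 5 were 3 of the 4 CDH11 probe sets, 207172_s_at (1.14 ± 0.22), 207173_x_at (0.95 ± 0.26) and 236179_at (0.89 ± 0.20), with CDH6 214803_at (0.60 ± 0.21) and CTNNB1 1554411_at (1.5 ± 0.30), at limma adjusted p from 0.000632 to 0.0335. Both groups of each were below the array median.

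CDH2, the cadherin of mesenchymal and neural cells, lay far above the median on all 21 arrays in its brighter probe set, 203440_at. It read 12.35, 12.55 and 12.45 in untransfected cells. Control cells read 12.27, 12.21 and 12.06 at 24 h, 12.07, 12.18 and 12.08 at 48 h, and 12.32, 12.46 and 12.44 at 144 h. Mir-429 cells read 12.59, 12.37 and 12.39 at 24 h, 12.16, 12.21 and 12.12 at 48 h, and 12.32, 12.28 and 12.22 at 144 h. The mir-429 arrays at 24 h all lay above the control arrays of that time, and at 48 and 144 h the groups overlapped. The group means spanned 0.34 in all, and each group overlapped its neighbour in the order from control at 48 h (12.11 ± 0.06 SD), the lowest, to mir-429 at 24 h (12.45 ± 0.12 SD), the highest.

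The mir-429 difference of CDH2 203440_at was 0.27 ± 0.10 at 24 h (limma adjusted p = 0.0589), 0.05 ± 0.10 at 48 h (adjusted p = 0.775) and -0.14 ± 0.10 at 144 h (adjusted p = 0.518). None passed the threshold, and the 95% interval of the 144 h difference ran from -0.34 to 0.06. With 1 probe set per gene in the adjustment the 24 h difference passed (adjusted p = 0.0333), as it did with a trended, robust prior (0.0136). The second probe set, 203441_s_at, gave 0.37 ± 0.15, 0.13 ± 0.15 and -0.21 ± 0.15 at the 3 times, also short of the threshold. Without control replicate 2 of 24 h its 24 h difference was 0.50 (adjusted p = 0.0221), and without control replicate 1 of 48 h it passed at 0.37 (adjusted p = 0.0338).

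CDH3, or P-cadherin, a classical cadherin of basal epithelium, was above the array median on only 3 arrays, all at 48 h. Its probe set 203256_at read 4.43, 4.94 and 4.10 in control and 4.05, 4.05 and 4.28 in mir-429 cells at 48 h. The untransfected cells read 3.66, 3.65 and 3.53, below all 6 of those arrays. At 24 h it read 3.43, 3.37 and 3.48 in control and 3.64, 3.57 and 3.32 in mir-429 cells, and at 144 h 3.44, 3.61 and 3.66 against 2.89, 4.21 and 3.93. The mir-429 difference at 48 h was -0.36 ± 0.25 (limma adjusted p = 0.376), with overlapping groups, and at 24 and 144 h both groups were below the array median and overlapped.

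Among the catenins, beta-catenin's brighter probe set differed most clearly between mir-429 and control cells. CTNNB1 201533_at read 11.83, 12.05 and 12.10 in untransfected cells. At 24 h it read 11.04, 11.12 and 10.95 in control cells against 12.03, 11.89 and 11.88 in mir-429 cells. At 48 h it read 12.19, 12.28 and 11.61 in control cells against 12.72, 12.70 and 12.99 in mir-429 cells. At 144 h it read 11.82, 11.87 and 11.93 in control cells against 11.87, 11.90 and 11.84 in mir-429 cells. The groups were apart at 24 and 48 h and overlapped at 144 h.

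CTNNB1 201533_at was higher with mir-429 by 0.90 ± 0.14 at 24 h, 1.86-fold (limma adjusted p = 0.000325), and by 0.78 ± 0.14 at 48 h, 1.72-fold (adjusted p = 0.00103). At 144 h the difference was -0.01 ± 0.14 (adjusted p = 0.992), with a 95% interval from -0.30 to 0.29. The effect at 144 h was smaller than that at 24 h by a tested difference of -0.90 ± 0.20 (adjusted p = 0.00827) and than that at 48 h by -0.78 ± 0.20 (adjusted p = 0.0242). The 24 h control arrays were the low ones: control cells differed from untransfected cells by -0.96 ± 0.14 (0.52-fold, adjusted p = 0.000113), whereas mir-429 cells at 24 h overlapped untransfected cells. At 48 h the order differed, with control arrays at 12.02 ± 0.36 SD around the untransfected mean of 11.99 ± 0.14 SD and mir-429 arrays above both at 12.80 ± 0.16 SD. In the order of the 7 group means, control at 24 h lay apart below and mir-429 at 48 h apart above the other 5 groups, each of which overlapped its neighbour.

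Some of these calls rest on the settings or on single arrays. The 24 h difference kept its call in every alternative run, between 0.83 and 1.02 with adjusted p at most 0.0158. The 48 h difference lost its call when only the groups of that time were fitted (adjusted p = 0.0947). The change between 48 and 144 h lost it without replicate 2 or 3 of control at 144 h (-0.79, adjusted p = 0.0538, and -0.76, 0.0578) and without replicate 3 of mir-429 at 48 h (-0.69, 0.0639). It was also lost with arrays centred on their medians (adjusted p = 0.0707).

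The second tested CTNNB1 probe set, 223679_at, did not follow the first. It read 6.84, 6.26 and 7.04 in control against 6.45, 6.07 and 6.42 in mir-429 cells at 24 h, and 6.09, 5.35 and 6.05 against 5.48, 5.68 and 5.71 at 48 h. Its differences were -0.40 ± 0.21, -0.21 ± 0.21 and -0.24 ± 0.21 at 24, 48 and 144 h (limma adjusted p = 0.205, 0.579 and 0.638). Without control replicate 2 of 24 h, the 24 h difference passed at -0.63 (adjusted p = 0.0321), opposite in sign to that of 201533_at. The rise of CTNNB1 at 24 and 48 h is thus a result of 1 of 2 tested probe sets.

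CTNND1, with its TMX2-CTNND1 readthrough, was higher with mir-429 in its brightest probe set at the same 2 times. The probe set 208407_s_at read 10.17, 10.31 and 10.26 in untransfected cells. Control cells read 9.85, 9.78 and 9.68 at 24 h, 9.81, 9.71 and 9.59 at 48 h, and 10.15, 10.15 and 10.10 at 144 h. Mir-429 cells read 10.32, 10.10 and 10.13 at 24 h, 10.08, 10.12 and 10.11 at 48 h, and 10.32, 10.14 and 10.19 at 144 h. The control arrays of 24 and 48 h lay below all other arrays, and the remaining 5 groups overlapped their neighbours.

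For CTNND1 208407_s_at the mir-429 difference was 0.41 ± 0.09 at 24 h, 1.33-fold (limma adjusted p = 0.00578), 0.40 ± 0.09 at 48 h, 1.32-fold (adjusted p = 0.00701), and 0.08 ± 0.09 at 144 h (adjusted p = 0.758). The effect at 144 h minus that at 24 h was -0.33 ± 0.13 (adjusted p = 0.119), so a difference between times was not shown. Control cells lay below untransfected cells by -0.47 ± 0.09 at 24 h and -0.54 ± 0.09 at 48 h (adjusted p = 0.00119 and 0.000125). Fitting only the groups compared left the mir-429 differences at 0.41 and 0.40 but past the threshold no longer (adjusted p = 0.0749 at 24 h and 0.153 at 48 h).

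The other CTNND1 probe sets gave a mixed picture. The dim 1557944_s_at read 3.54, 3.75 and 3.21 in control and 5.10, 4.37 and 4.60 in mir-429 cells at 24 h, a difference of 1.19 ± 0.31 (limma adjusted p = 0.0119). All 3 control arrays were below their medians, and with these raised to the median the difference was at least 0.43. The call was lost without control replicate 3 of 24 h (1.05, adjusted p = 0.0655) and without mir-429 replicate 1 of 24 h (0.99, adjusted p = 0.0725). The probe set 208862_s_at gave 0.26 ± 0.10, -0.02 ± 0.10 and -0.02 ± 0.10 at the 3 times, and 211240_x_at gave 0.34 ± 0.14, -0.31 ± 0.14 and 0.06 ± 0.14, with no call. At 24 h 211240_x_at passed without untransfected replicate 1 (adjusted p = 0.0401). So all 4 CTNND1 probe sets had higher means with mir-429 at 24 h, 2 of them past the threshold, and at 48 h they took both signs.

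CTNNA1, alpha-catenin, was above the median on all 21 arrays in 3 probe sets and showed no mir-429 call at any single time. Its brightest, 210844_x_at, read 11.89, 11.87 and 11.82 in untransfected cells, the lowest group. Control cells read 12.11, 11.94 and 12.16 at 24 h, 12.08, 12.18 and 12.16 at 48 h, and 12.10, 12.09 and 12.07 at 144 h. Mir-429 cells read 11.94, 12.07 and 12.07 at 24 h, 12.42, 12.19 and 12.32 at 48 h, and 12.18, 12.31 and 12.18 at 144 h. The mir-429 difference was -0.05 ± 0.09, 0.17 ± 0.09 and 0.13 ± 0.09 at the 3 times (limma adjusted p = 0.791, 0.261 and 0.528). The groups did not overlap at 48 and 144 h, and the 95% intervals there ran from -0.03 to 0.36 and from -0.06 to 0.33. Over the 4 tested CTNNA1 probe sets the differences at single times lay between -0.15 (200765_x_at at 24 h) and 0.41 (1558214_s_at at 48 h). With array weights 200764_s_at passed at 144 h (0.25, limma adjusted p = 0.0443), against 0.22 ± 0.11 (adjusted p = 0.361) in the main fit. Averaged over the 3 times it was at 0.18 ± 0.07 (adjusted p = 0.0551), and it passed in 8 of 31 alternative fits.

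**Figure D2:**
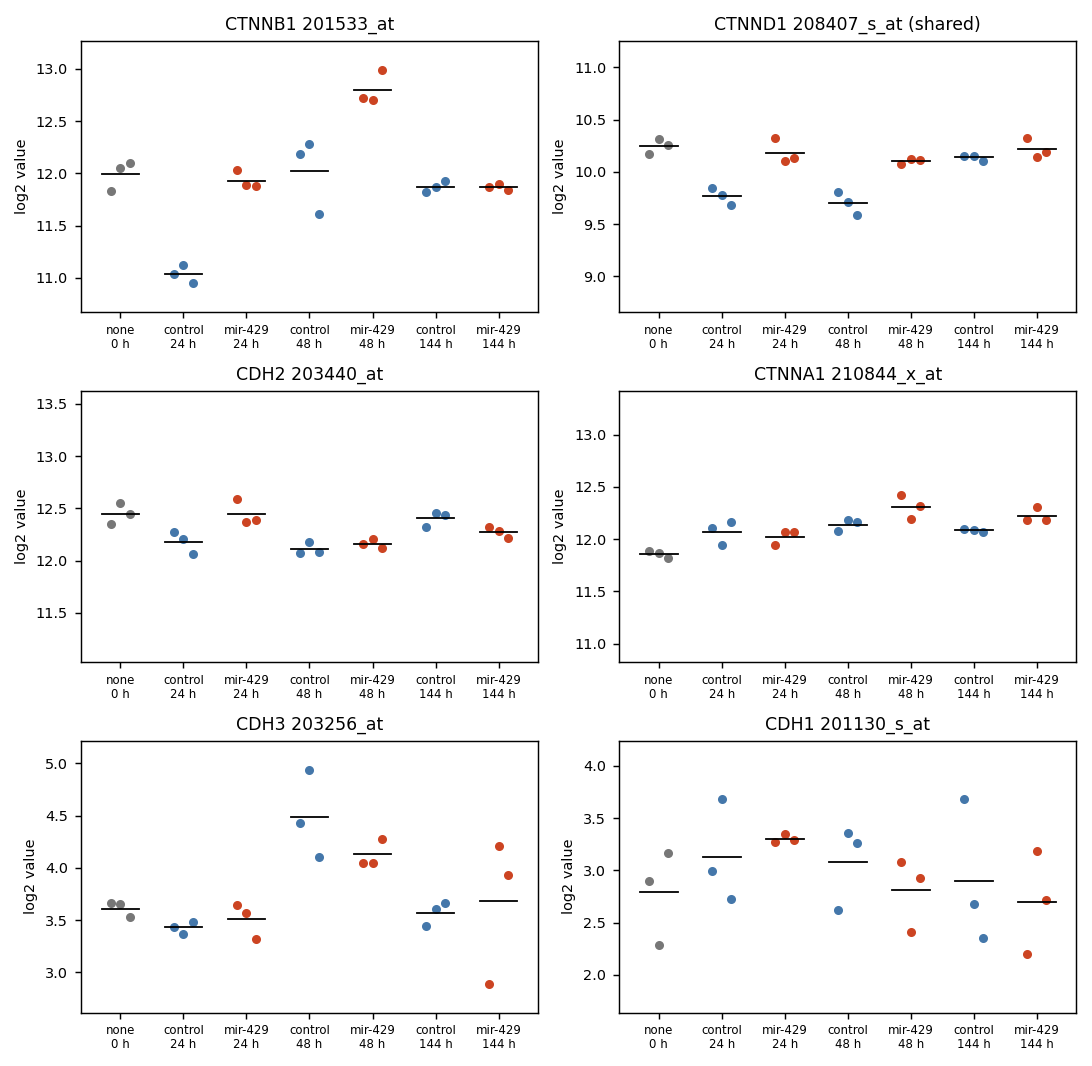
Log2 value (vertical axis) on each of the 21 arrays of the brightest probe set of 6 members, by group (horizontal axis): untransfected cells in grey, control in blue, mir-429 in red; points are arrays and lines are means of 3. CTNNB1 201533_at shows the 24 h control arrays alone near 11 and the 48 h mir-429 arrays alone above 12.6, and CTNND1 208407_s_at shows control at 24 and 48 h below all other arrays; the vertical axes cover the same extent at different positions, and levels are not compared across panels.

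Counted over the 13 tested member probe sets, 3 were called higher with mir-429 at 24 h and 0 lower, beside 10.6% of all tested probe sets called higher and 7.7% lower. At 48 h 2 were called higher and 0 lower, beside 7.03% and 8.29%. At 144 h limma called 0 of 13, and 0 had an unadjusted p under 0.05; of all probe sets 0.872% were called higher and 3.42% lower. The mir-429 arrays at 144 h were shifted against the control arrays by -0.11 in their medians, and centring the arrays changed the share of higher calls among all calls from 20.3% to 45.9%. Averaged over the 3 times, 2 were called higher and 0 lower (CTNNB1 201533_at at 0.56 ± 0.08 and CTNND1 208407_s_at at 0.30 ± 0.05), beside 8.93% and 11.7%; the count was 4 without control replicate 2 of 48 h. Centring moved the share of higher calls over all probe sets from 43.2% to 59.7%.

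The member counts at single times are small, and only 2 genes supply them. Median differences of the 13 were 0.27, 0.13 and 0.06 at 24, 48 and 144 h, beside medians over all tested probe sets of -0.02, 0.00 and -0.05. An unadjusted p under 0.05 in limma was reached by 7 member probe sets at 24 h, all 7 higher with mir-429. They were every CTNND1 probe set, both of CDH2 and 201533_at of CTNNB1. The share of all probe sets under this unadjusted level was not taken, so the 7 have no background beside them. Without control replicate 2 of 24 h the count of calls at 24 h rose from 3 to 5, the added ones being 203441_s_at of CDH2, higher, and 223679_at of CTNNB1, lower. The mean difference between 3′ and 5′ probe sets of GAPDH and ACTB, a measure of RNA integrity and of priming from the 3′ end, was 4.21 in control and 2.87 in mir-429 cells at 24 h. With this measure as a covariate 1 of the 3 calls at 24 h remained, CTNNB1 201533_at, while 1557944_s_at was at 0.10 (adjusted p = 0.916) and 208407_s_at kept its size at 0.40 with a wider error (adjusted p = 0.188). Over all 30519 tested probe sets the calls at 24 h went from 5585 to 754 with this covariate.

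**Figure D3:**
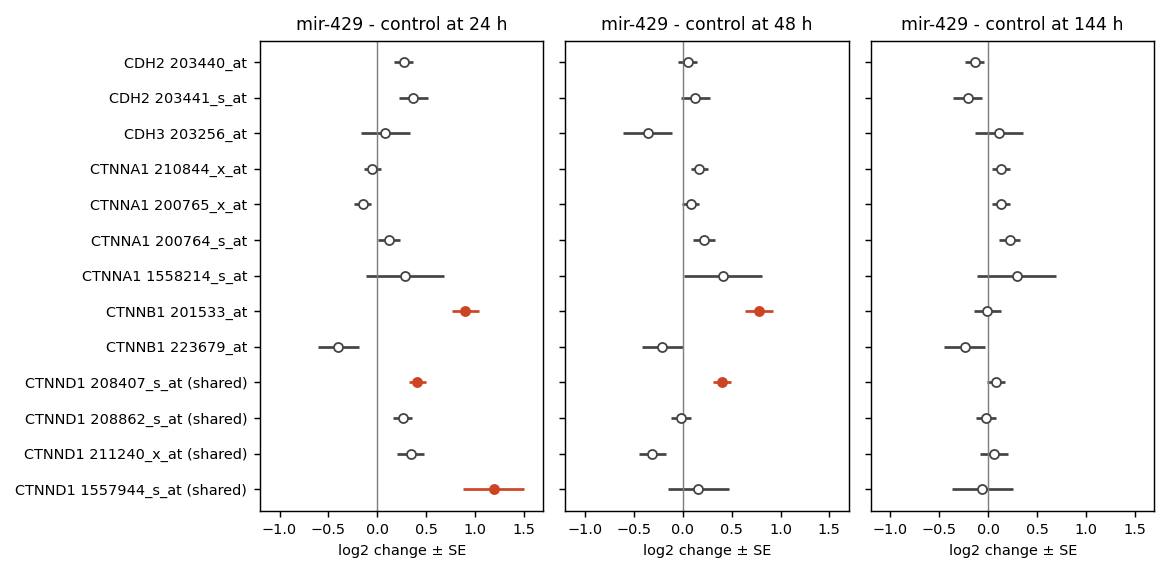
Mir-429 minus control for the 13 tested member probe sets (rows) at 24, 48 and 144 h (panels), as log2 change with SE bars (horizontal axis), n = 3 arrays per group; filled red points passed an adjusted p of 0.05. The filled points are 201533_at and 208407_s_at at 24 and 48 h and 1557944_s_at at 24 h, and none is filled at 144 h.

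Effects were also compared between times. Between 24 and 48 h limma called 0 of 13 member probe sets, beside 2.39% of all at the same adjusted threshold, and 2 of the 13 had an unadjusted p under 0.05, a level at which no share of all was taken. These 2 were both of CTNND1: the dim 1557944_s_at at -1.03 ± 0.43 (adjusted p = 0.192) and 211240_x_at at -0.65 ± 0.20 (adjusted p = 0.0911). The mean of 211240_x_at went from above control at 24 h to below it at 48 h; without untransfected replicate 1 its difference passed (adjusted p = 0.0403). Between 48 and 144 h the call of CTNNB1 201533_at was the only 1, beside 6.77% of all, and between 24 and 144 h it was again the only 1, beside 11.6%. Of all calls, 36.1% and 29.1% were increases in these comparisons, against 48.9% and 44.4% with arrays centred. For the 24 to 144 h comparison the count was 2 without untransfected replicate 1, 4 without control replicate 2 of 24 h, and 3 without control replicate 1 or 2 of 48 h.

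Control cells were set against untransfected cells to show what the members did without mir-429. These comparisons share the control arrays with those of mir-429, so that a low control array lowers the one and raises the other. At 24 h 4 of 13 member probe sets were called, beside 29.9% of all: CTNNA1 200765_x_at rose by 0.29 ± 0.09, and CDH2 203440_at (-0.27 ± 0.10), CTNND1 208407_s_at (-0.47 ± 0.09) and CTNNB1 201533_at (-0.96 ± 0.14) fell. The CDH2 call (adjusted p = 0.0428) was lost without untransfected replicate 2 or 3 or control replicate 3 of 24 h (adjusted p = 0.164, 0.106 and 0.176) and in 8 further fits without 1 array, at 0.0504 to 0.0536. The call of CTNNA1 200765_x_at was lost without untransfected replicate 3 or control replicate 3 of 24 h (adjusted p = 0.0788 and 0.0839). The count was 7 without untransfected replicate 1 and 2 without untransfected replicate 3 or control replicate 3 of 24 h. At 144 h limma called 0 of 13, beside 0.236% of all at the same adjusted threshold. Of the 13, 3 had an unadjusted p under 0.05, a level at which no share of all was taken.

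At 48 h 10 of 13 member probe sets were called against untransfected cells, beside 52.6% of all. Higher in control cells were 6: 3 of CTNNA1, 2 of CTNND1 and CDH3. CTNNA1 1558214_s_at read 7.19, 6.82 and 7.69 against 4.79, 5.78 and 5.60, a rise of 1.84 ± 0.40 (limma adjusted p = 0.000983). CDH3 rose by 0.88 ± 0.25 (adjusted p = 0.00628), or by at least 0.22 with the dim untransfected arrays raised to their medians. It passed the brightness rule only through 48 h arrays, the time at which it is high, so its call is a description. The 4 that fell were CDH2 203440_at (-0.34 ± 0.10), CTNND1 208407_s_at (-0.54 ± 0.09), CTNND1 1557944_s_at (-0.80 ± 0.31) and CTNNB1 223679_at (-0.95 ± 0.21). For 1557944_s_at the groups overlapped, and the fall was -0.02 with the dim control arrays raised to their medians. CTNNA1 210844_x_at lost its call without untransfected replicate 3 (0.26, adjusted p = 0.0561), and CTNND1 1557944_s_at without untransfected replicate 2 or 3 or control replicate 1 of 48 h (-0.58, -0.62 and -0.51, adjusted p = 0.160, 0.144 and 0.189).

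At 48 h probe sets of 1 gene thus went opposite ways, and the array quality measure stood apart at this time. CTNND1 208862_s_at and 211240_x_at were higher than in untransfected cells by 0.48 ± 0.10 and 0.52 ± 0.14, while 208407_s_at and 1557944_s_at were lower. The 3′ minus 5′ difference was 7.83 ± 0.62 SD in control and 8.55 ± 0.15 SD in mir-429 cells at 48 h, against 2.87 to 4.21 in the means of the other 5 groups. With it as a covariate 0 of the 10 calls remained in limma, in a fit where the measure sets the 48 h groups apart from the rest by itself. Over all 30519 tested probe sets the calls in this comparison went from 16060 to 175, so the loss is not particular to the members. The sizes went several ways: CDH2 203440_at came to -0.00, CDH3 to 0.40 and CTNNB1 223679_at to -0.38, and CTNND1 208407_s_at stayed at -0.50. CTNND1 208862_s_at grew to 0.94, 211240_x_at to 1.7 and CTNNA1 1558214_s_at to 4.56, and CTNND1 1557944_s_at turned to 3.0 (adjusted p = 0.0857). Its part in the 48 h values was not tested otherwise.

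The genes around the members were taken from 7 lists, with each gene at its brightest probe set; the lists were drawn up with earlier results of these data known. Over all 12879 genes so tested, 13.2% were called higher and 9.61% lower with mir-429 at 24 h, 7.98% and 9.53% at 48 h, and 1.16% and 3.39% at 144 h. The share of all genes with an unadjusted p under 0.05 was not taken, so list counts at that level have no background. Among the repressors of E-cadherin 9 were tested. Of these, 2 were higher and 2 lower at 24 h, 1 was higher and 3 lower at 48 h, and 0 were called by limma at 144 h (0 with an unadjusted p under 0.05). ZEB1 (212764_at) fell by 1.29 ± 0.15 at 24 h (adjusted p = 1.92e-05) and by 1.72 ± 0.15 at 48 h (adjusted p = 4.74e-07), and ZEB2 (203603_s_at), its paralog, fell by 1.12 ± 0.19 at 48 h (adjusted p = 0.000446). TWIST1 (213943_at), a basic helix-loop-helix repressor, rose by 0.69 ± 0.16 at 24 h (adjusted p = 0.00611). The median difference of the list was -0.15, 0.03 and -0.04 at the 3 times.

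Other cadherins numbered 17 in their list, of which 6 were tested. Limma called 0 of them at 24 and at 48 h, with 0 at an unadjusted p under 0.05 each time. At 144 h 1 was higher, CDH5, the cadherin of vascular endothelium (204677_at), by 0.79 ± 0.14 (adjusted p = 0.00293), from a control mean of 9.41 to 10.20. Other catenins and adherens junction proteins gave 3 higher and 1 lower of 19 at 24 h, 3 and 0 at 48 h, and by limma 0 at 144 h (6 with an unadjusted p under 0.05, no share of all genes taken). PLEKHA7 (228450_at), which binds p120-catenin at the apical junction, was higher by 1.31 ± 0.29 at 24 h and 1.86 ± 0.29 at 48 h (adjusted p = 0.00419 and 0.000227). NECTIN1 (211846_s_at), a junctional immunoglobulin-like protein, was higher by 0.59 ± 0.17 at 48 h, a call lost without control replicate 1, mir-429 replicate 1 or mir-429 replicate 3 of that time (0.39, 0.57 and 0.54, adjusted p = 0.117, 0.0638 and 0.0785). ACTN1 (208636_at), an actin crosslinker, was lower by 0.36 ± 0.10 at 24 h, and lost its call without control replicate 1 or 3 or mir-429 replicate 2 of that time (-0.32, -0.36 and -0.27, adjusted p = 0.0652, 0.0516 and 0.0914).

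EPCAM's partners and proteases gave 3 higher and 1 lower of 11 at 24 h, 2 and 1 at 48 h, and by limma 0 at 144 h (3 with an unadjusted p under 0.05, no share of all genes taken), around an EPCAM probe set that was itself below the median. ADAM10 (202603_at), a membrane protease, was higher by 0.63 ± 0.12 at 24 h. BACE1 (217904_s_at), another protease that cuts EPCAM, was lower by 0.97 ± 0.18 at 24 h and differed by -1.07 ± 0.18 at 48 h. FHL2 (202949_s_at), a cofactor that joins the cleaved EPCAM tail to beta-catenin, was higher by 0.94 ± 0.10 at 48 h (limma adjusted p = 4.17e-06).

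Genes of cadherin endocytosis, processing and p120 regulation gave 2 higher and 3 lower of 21 at 24 h, 0 and 4 at 48 h, and by limma 0 at 144 h (6 with an unadjusted p under 0.05, no share of all genes taken). ADAM9 (202381_at), a membrane protease, was higher by 1.00 ± 0.14 and FYN (210105_s_at), a kinase of the Src family, was lower by 0.88 ± 0.13 at 24 h. PTPRM (1555579_s_at), a receptor phosphatase, was lower by 0.49 ± 0.11 at 48 h. MMP3 (205828_at), a secreted protease, was lower by 1.36 ± 0.34 at 48 h, or by a bound of -0.72 with the dim mir-429 arrays at their medians. Its call was lost without control replicate 2 of 48 h (-1.02, adjusted p = 0.0553).

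The partners of beta-catenin in degradation and in the nucleus gave 6 higher and 1 lower of 20 at 24 h, 1 and 2 at 48 h, and 0 and 2 at 144 h. TLE4 (204872_at), a corepressor of the TCF factors, was higher by 0.94 ± 0.16 at 24 h and 0.72 ± 0.16 at 48 h, and AMER1 (1552882_a_at), a scaffold of the destruction complex, by 0.98 ± 0.21 at 24 h. TLE1 (203221_at), a paralog of TLE4, was lower by 0.65 ± 0.16 at 48 h. At 144 h LEF1 (221558_s_at), a DNA-binding partner of beta-catenin, was lower by 0.77 ± 0.16, and PYGO1 (215517_at), a nuclear cofactor, was lower by 1.01 ± 0.25. Leaving out 1 array ended the LEF1 call for control replicate 2 and mir-429 replicates 1 and 2 of 144 h (-0.64, -0.75 and -0.69, limma adjusted p = 0.0865, 0.0558 and 0.0673). It ended that of PYGO1 for control replicates 1, 2 and 3 and mir-429 replicates 1 and 2 of 144 h (-0.87, -1.10, -1.07, -0.90 and -0.83, adjusted p = 0.117, 0.0659, 0.0638, 0.122 and 0.135), and centring the arrays ended both (adjusted p = 0.0528 and 0.0502).

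Genes described as Wnt and beta-catenin targets gave 4 higher and 1 lower of 12 at 24 h, 2 and 0 at 48 h, and 0 and 3 at 144 h, with LEF1 counted here too. SOX9 (202935_s_at), a transcription factor, was higher by 1.21 ± 0.30 at 24 h and 1.31 ± 0.30 at 48 h; its 24 h call was lost without mir-429 replicate 1 of 24 h (0.87, limma adjusted p = 0.0705). JAG1 (216268_s_at), a Notch ligand, was higher by 0.76 ± 0.17 at 24 h. DKK1 (204602_at), a secreted Wnt inhibitor, was higher by 0.29 ± 0.08 at 48 h, and lost its call without mir-429 replicate 2 or 3 of that time (0.27 and 0.28, adjusted p = 0.0649 and 0.0648). ZNRF3 (226360_at), which removes Wnt receptors, was lower by 0.79 ± 0.16 at 144 h, with its call lost without control replicate 3 of 144 h (-0.74, adjusted p = 0.0507). The median differences of this list were 0.27, -0.01 and -0.04 at the 3 times, beside -0.02, -0.01 and -0.04 over all genes.

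With the 3′ minus 5′ measure as a covariate, 10 of the 12 list genes named at 24 h missed the threshold, ADAM9 and ZEB1 being the exceptions; SOX9 was then at 0.40 (limma adjusted p = 0.678), AMER1 at 0.48 (0.468) and FYN at -0.58 (0.109). Others lost the call with a size nearer the first one, such as TWIST1 at 0.65 (0.213), JAG1 at 0.69 (0.214), PLEKHA7 at 1.19 (0.198) and ADAM10 at 0.53 (0.156). At 48 h 3 of the 12 named missed it and at 144 h 0 of 4. Calls over all 30519 tested probe sets went from 5585 to 754, 4674 to 3868 and 1310 to 944 at 24, 48 and 144 h. Fitting only the groups compared took away 5 of 12 calls at 24 h, 6 of 12 at 48 h and 3 of 4 at 144 h. In that fit the calls over all 30519 were 2983, 1166 and 972 at the 3 times.

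**Figure D4:**
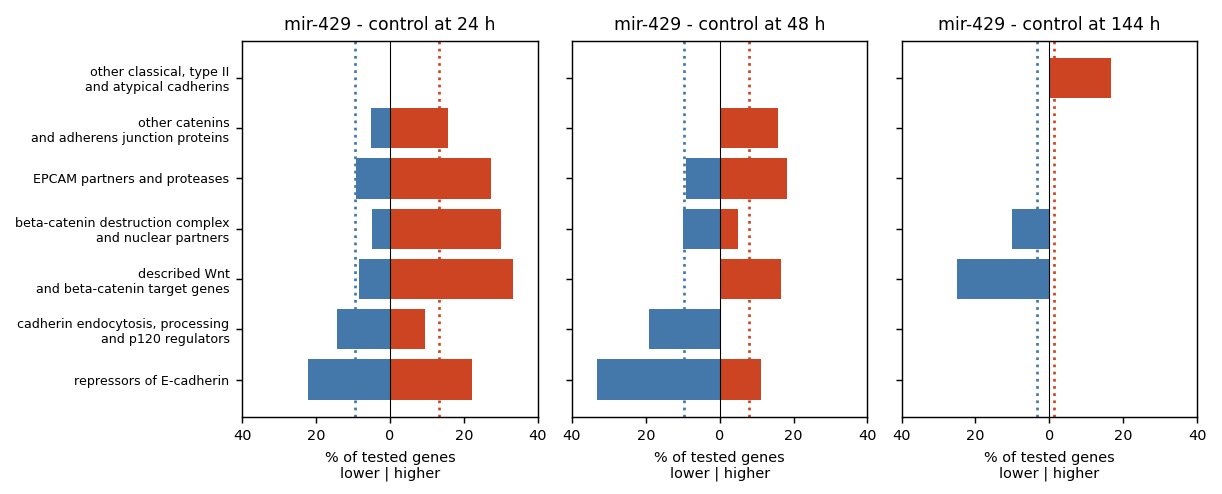
Share of each list's tested genes called higher (red, right of 0) or lower (blue, left of 0) with mir-429 at 24, 48 and 144 h (panels), in % of the genes tested in that list (horizontal axis); dotted lines give the same shares over all 12879 genes. The lists hold 6 to 21 tested genes, so a bar can stand for 1 gene, as it does for the other cadherins at 144 h.

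The cell identity of the arrays was read from 4 marker lists. Of 9 ovarian and epithelial carcinoma markers, 6 were above the median on all arrays, including PAX8 and KRT8, and MUC16 on none. Of the 8 measured leukocyte markers 7, among them PTPRC, were above it on no array. COL1A1 was above it on all arrays and 4 of 8 fibroblast markers on none. Of the endothelial markers CDH5 and TIE1 were above it on all arrays and EMCN on none, and the summed log2 level of the 8 ran from 41.2 to 42.1 in control and from 39.1 to 42.8 in mir-429 cells at 144 h, where CDH5 was called higher. That sum was lower with mir-429 at 24 h (37.7 to 38.8 against 39.5 to 40.6) and at 48 h (36.6 to 37.2 against 38.9 to 39.6). The sum of the 9 carcinoma markers was 62.7 to 64.8 in control and 65.4 to 66.6 in mir-429 cells at 48 h, against 68.7 to 69.7 in untransfected cells. At 24 h the carcinoma sums overlapped, at 67.6 to 68.7 in control and 67.2 to 69.1 in mir-429 cells. The endothelial sum thus differed at 24 and 48 h, and the carcinoma sum at 48 h, times at which members were called. Of 5 tested endothelial markers limma called only TIE1, lower at 24 and at 48 h, beside 9.61% and 9.53% of all genes called lower. Of 7 tested carcinoma markers it called KRT7, KRT18 and KRT8 higher at 48 h and 0 lower, beside 7.98% of all genes higher. The part of these sums in the member differences was not tested.

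Finally, the genes whose 7 group means followed a member most closely were found for the 2 members that spanned at least 1 log2 unit. For CTNNB1 201533_at, with a span of 1.77, they were NIPSNAP3A (Pearson r = 0.992), FLVCR1 (0.990) and APPL2 (0.990). For CDH3, with a span of 1.06, they were SATB1 (0.992), APIP (0.991) and PIKFYVE (0.991). These are the highest of 12879 genes over 7 points that share their arrays, and they describe likeness of pattern only. CDH3 203256_at was above the array median on 3 arrays, all at 48 h, so its pattern rests mostly on values below that median.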

How the data were processed

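Total RNA of 21 HEY samples was amplified from the 3′ end, biotin labelled and hybridised to 1-colour arrays, per the labels' protocols. RMA is the method the submitters' processing notes name for the deposited log2 expression values; its version is not given in the sources used here. No further scaling was applied. GEO's platform annotation gives 1 symbol to 41097 probe sets, several to 1801 and none to 11777, and 99.9% of the first kind matched RefSeq GRCh38.p14 by Entrez identifier. After 62 control probe sets were left out, 30519 passed the brightness rule. Limma 3.58.1 in R 4.3.3 (lmFit, eBayes) was fitted with a mean per group (14 residual degrees of freedom, prior 3.47) for 10 comparisons, two-sided; the script was tested on simulated data. Precision is limited by the number of arrays, which carry no depth.

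The members and lists were chosen with earlier results of these data known. Described in full were the brightest probe set of each member and those past the threshold between mir-429 and control at a single time. Of each list, up to 2 genes with the smallest p among calls at each time were named, and of patterns like a member the 3 with the highest r. Alternatives were no or a stricter brightness rule (6 arrays), 1 probe set per gene, centring, quantile and cyclic loess normalization, only the groups compared, no 48 h arrays, array weights, a trended robust prior, a 3′ minus 5′ covariate, replicate number as a block, and leaving out each array. In the blocked check, deviations of same-numbered control and mir-429 arrays correlated at 0.374, 0.216 and 0.0205 at 24 h, -0.159, -0.088 and 0.0728 at 48 h, and 0.106, -0.026 and -0.106 at 144 h, so the numbers were not taken as pairs.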

Additional observations from a re-analysis of the deposited data

Results flagged for a closer look

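CTNNB1 201533_at drew attention because its mir-429 effect differed between times in a direct test. The effect at 144 h minus that at 48 h was -0.78 ± 0.20 (limma adjusted p = 0.0242), and the effect at 144 h minus that at 24 h was -0.90 ± 0.20 (adjusted p = 0.00827). The second call held under each alternative run, whereas the first was lost in several of them. The cause of the difference was not tested.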

How the results depend on the processing

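Counts of member probe sets past the threshold that moved by over 1.5 times were these. With the 3′ minus 5′ covariate they were 1 at 24 h, and 0 between 48 and 144 h, and for control against untransfected cells 2 at 24 h and 0 at 48 h. Over all 30519 tested probe sets the calls in these comparisons went from 5585 to 754, 2067 to 1273, 9118 to 3285 and 16060 to 175. With 1 probe set per gene the member counts were 1 at 48 h, 1 averaged over times, 2 between 24 and 144 h, and 2 and 3 for control at 24 and 48 h. Of all 12879 genes in that setting 2649, 3602, 2393, 4897 and 7022 were called in the same comparisons. That setting tested only 4 member probe sets and left out CTNND1, whose probe sets are shared with TMX2-CTNND1, so no CTNND1 call could be kept in it. With only the groups compared the member counts were 0 at 48 h, 0 between 48 and 144 h, 2 between 24 and 144 h, and 2 and 6 for control at 24 and 48 h. Over all 30519 tested probe sets these comparisons went from 4674 to 1166, 2067 to 1313, 3553 to 3919, 9118 to 6786 and 16060 to 13151 calls. Array weights gave 1 at 144 h, 4 averaged, 4 between 24 and 144 h, and 7 and 4 for control at 24 and 144 h. Calls over all 30519 went from 1310 to 4974, 6309 to 6921, 3553 to 6308, 9118 to 10702 and 72 to 7546 in these comparisons. No brightness rule gave 0 between 48 and 144 h and 2 for control at 24 h, centring 0 between 48 and 144 h, and leaving out the 48 h arrays or a trended robust prior 2 between 24 and 144 h. Calls over all probe sets were 1348 and 7520 of 54613 without the rule and 1552 of 30519 with centring. They were 4902 of 30519 without the 48 h arrays and 3999 with the prior. Fits without 1 array gave 2 to 5 member calls at 24 h, 2 to 4 averaged, 0 to 1 between 24 and 48 h, 0 to 1 between 48 and 144 h, 1 to 4 between 24 and 144 h, and 2 to 7 for control at 24 h. Counts over all probe sets in those fits are not given here. The one reversal of a called value was CTNND1 1557944_s_at in control against untransfected cells at 48 h, at 3.0 with the covariate against -0.80; sign changes where neither value passed were not counted. Of 51 called results 14 kept their call in every alternative run, and of 107 not called 84 stayed so. The cause of these moves was not tested, apart from the fewer probe sets or arrays that some settings hold by construction. With the replicate block the 24, 48 and 144 h counts were 3, 2 and 0, and 1 call was lost, CDH2 203440_at in control against untransfected cells at 24 h (-0.27, limma adjusted p = 0.0508). With 3 arrays per group and 15 of 28 member probe sets below every array median, a missed threshold does not show that a member stayed level.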
